A study of Homo sapiens with 16 samples.

Results

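H/ACA box snoRNAs are described here in PC3 and MDA-MB-231 cells and in EVs isolated from the media of these cells. The members were all entries of the snoRNA table whose name starts with SNORA, with the exception of SNORA66, SNORA73A, SNORA73B, SNORA4, SNORA63 and SNORA81, and they made up 137 of 413 entries. Of the remainder, 256 were C/D box snoRNAs (SNORD), 4 were SCARNA, 6 were the SNORA entries left out and 10 had other names. An H/ACA snoRNA folds into a pair of hairpins joined by a hinge that carries the H box and ends in a short tail that carries the ACA box. Bound to dyskerin, NOP10, NHP2 and GAR1, it pairs with ribosomal RNA and directs the conversion of a chosen uridine to pseudouridine. Most H/ACA snoRNAs are cut out of the introns of other genes, many of them genes for ribosomal proteins or for lncRNAs named small nucleolar RNA host genes (SNHG), and they reside in the nucleolus.

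PC3 is an epithelial line from prostate cancer and MDA-MB-231 (MDA-231 in the labels) is an epithelial line from breast cancer, both wild type and untreated. For each line, small RNA was sequenced from 2 libraries of cells and from 2 libraries each of EVs isolated from serum-free conditioned media (CM) by next-gen ATPS (a two-phase separation in polyethylene glycol and dextran), by ultracentrifugation (UC) and by the Qiagen exoRNeasy kit, which gave 16 libraries in 8 groups. Since no source says that paired libraries were grown as separate cultures, p-values cover only library-to-library variation, possibly technical in origin. No gene that would check the identity of a cell line is in a snoRNA table.

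Each value counts reads scaled to the snoRNA reads of its library, so that every library has the same total, and the authors named it TPM. A value is therefore a share, and a rise of some snoRNAs and a fall of the others cannot be told apart, nor can more vesicles and more RNA per vesicle. The paper proposes that ATPS isolates cell-free RNA along with EVs, and it describes no RNase step for the sequenced samples. How much of an EV value came from RNA outside vesicles was not tested. Because short reads were sequenced, a value counts fragments of these RNAs and says nothing of whether the intact RNA was present. The snoRNA reads behind a library numbered 3555333 and 10849128 in PC3 cells and 41519 to 400429 in EVs. In MDA-MB-231 cells, replicate 1 had 3900437 reads and replicate 2 had 16635. At that depth 1 read was worth 60.1 TPM, and a count of 0 allowed up to 180 TPM (3 reads), so the main values that rest on MDA-MB-231 cells are also given without replicate 2. In EV libraries 1 read was worth 2.50 to 24.1 TPM, so low EV values rest on few reads.

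Of the 137 members, 125 were matched to 1 locus of GENCODE v44 on GRCh38. Their annotated transcripts had a median length of 133 bases (68 to 701). ACA was present in the last 8 bases of 114 of them (91.2%), and 106 (84.8%) also held ANANNA, the letters of an H box, in the middle stretch of the transcript on the sense strand. In the 314 SNORD transcripts of the same annotation the shares were 6.05% and 1.27%, so the names and the sequence features went together. A lncRNA gene contained 22 members, a ribosomal protein gene 17, another protein-coding gene 73, and 13 lay in no other gene on the same strand.

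The sequences below belong to the members on which the results turn. The capitals mark the ANANNA match nearest the middle and an ACA within the final 8 bases. In SNORA71A a later ACA, which overlaps the marked one, ends the sequence and is not marked. Matches of ANANNA can overlap, and a match is a description of the letters and not a proven box. In SNORA44 the final 8 bases of the annotated transcript hold no ACA. SNORA71A, SNORA71C and SNORA71D lie on the minus strand in the lncRNA gene SNHG17 (GRCh38 chr20:38427309-38427442, chr20:38429670-38429803 and chr20:38433865-38433998). SNORA44 lies in SNHG12 (chr1:28580381-28580512, minus strand). These members were higher in EVs than in cells of both lines.
SNORA71A: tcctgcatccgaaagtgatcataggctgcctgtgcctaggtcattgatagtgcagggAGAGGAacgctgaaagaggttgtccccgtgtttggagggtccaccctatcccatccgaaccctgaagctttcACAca
SNORA71C: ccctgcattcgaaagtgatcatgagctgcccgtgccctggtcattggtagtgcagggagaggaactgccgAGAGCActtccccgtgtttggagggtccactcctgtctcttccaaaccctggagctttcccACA
SNORA71D: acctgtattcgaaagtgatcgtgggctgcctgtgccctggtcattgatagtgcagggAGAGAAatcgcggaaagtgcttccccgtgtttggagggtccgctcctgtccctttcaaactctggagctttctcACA
SNORA44: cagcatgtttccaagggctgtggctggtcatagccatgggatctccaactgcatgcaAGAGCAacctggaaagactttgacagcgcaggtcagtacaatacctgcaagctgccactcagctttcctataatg

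SNORA18 lies in TAF1D, which encodes a subunit of the RNA polymerase I selectivity factor, and SNORA2C (chr12:48654382-48654518, minus strand) in an intron of KANSL2. They led the H/ACA reads of the cells and had overlapping levels in cells and EVs.
SNORA2C: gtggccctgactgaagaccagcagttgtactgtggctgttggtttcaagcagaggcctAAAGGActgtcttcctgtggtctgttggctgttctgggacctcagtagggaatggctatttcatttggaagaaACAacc

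SNORA58 (chr3:131479097-131479233, minus strand) lies in an intron of MRPL3, a mitochondrial ribosomal protein gene, and SNORA58B (chr1:154259727-154259862, plus strand) in UBAP2L. SNORA32 (chr11:93730979-93731099, minus strand) lies in TAF1D, as SNORA18 does, and SNORA50C (chr17:64146339-64146471, plus strand) in SNHG25. The first pair were 86.9% identical in an alignment. SNORA58, SNORA58B and SNORA32 separated the EVs of MDA-MB-231 from those of PC3. SNORA50C did so only within each isolation method, and also differed between methods.
SNORA58: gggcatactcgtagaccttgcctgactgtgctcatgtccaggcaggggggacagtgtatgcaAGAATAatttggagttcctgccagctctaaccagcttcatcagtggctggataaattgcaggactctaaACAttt
SNORA58B: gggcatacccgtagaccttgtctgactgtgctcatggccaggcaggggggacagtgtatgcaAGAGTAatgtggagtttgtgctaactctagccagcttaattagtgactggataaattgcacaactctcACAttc
SNORA32: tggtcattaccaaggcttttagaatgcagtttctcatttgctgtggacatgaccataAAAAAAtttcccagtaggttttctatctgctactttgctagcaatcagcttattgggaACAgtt
SNORA50C: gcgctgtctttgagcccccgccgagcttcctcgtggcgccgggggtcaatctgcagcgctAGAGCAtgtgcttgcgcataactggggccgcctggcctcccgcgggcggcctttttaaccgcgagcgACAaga

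H/ACA snoRNAs held a small share of snoRNA reads in every library, and the share was larger in EVs than in cells of both lines. In PC3 cells it was 0.787% and 0.846% (mean 0.817% ± 0.0412, SD, n = 2). In PC3 EVs it was 1.96% at the lowest, 2.35% at the median and 2.51% at the highest (mean 2.32% ± 0.187, SD, n = 6), 2.84 times the mean of the cells. All 6 EV libraries were above both cell libraries. In MDA-MB-231 cells it was 0.719% in replicate 1 and 0.547% in replicate 2, where 91 member reads gave a 95% Wilson interval of 0.446% to 0.671%. MDA-MB-231 EVs ranged from 2.90% to 5.50% with a median of 3.99% (mean 4.03% ± 0.965, SD, n = 6), and again no EV library overlapped the cells. Their mean was 6.37 times the cell mean, which includes the shallow replicate 2 and is below replicate 1 alone (0.719%). The ratio to replicate 1 alone is thus smaller. The interval covers counting error only, as do the floors given for counts of 0. The C/D box snoRNAs held most of the rest, 98.7% in PC3 cells and 96.5% to 97.1% in the group means of PC3 EVs. The share is given as a description, and no p was computed for it.

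**Figure D1:**
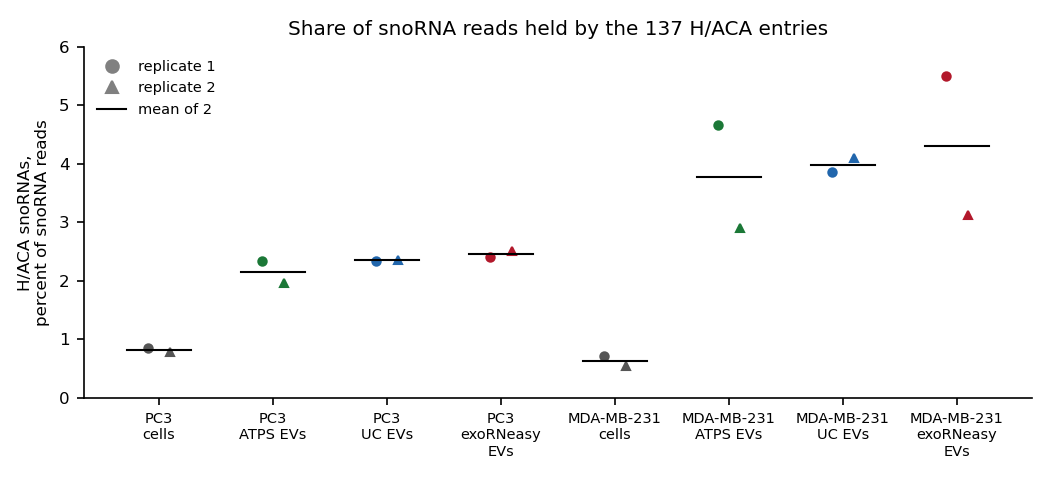
Share of snoRNA reads held by the 137 H/ACA snoRNAs (percent, y axis) in each of the 16 libraries by group (x axis), with circles for replicate 1, triangles for replicate 2 and bars for the mean of 2. The 6 PC3 EV libraries lie between 1.96% and 2.51% and the 6 MDA-MB-231 EV libraries between 2.90% and 5.50%, all above the cells (0.547% to 0.846%).

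The number of members with at least 1 read was largest in the deepest library and smallest in the shallowest, but did not follow depth throughout. It was 121 and 129 in PC3 cells, 71 to 97 in PC3 EVs, 108 and 20 in MDA-MB-231 cells and 68 to 119 in MDA-MB-231 EVs. At the depth of the shallowest library, 24.5 to 26.3 members would be expected in PC3 cells against 50.6 to 61.8 in PC3 EVs, so the order of cells and EVs turned. All 137 members had a read in at least 1 library, and 17 had one in all 16 libraries, among them SNORA71D, SNORA44, SNORA18, SNORA2C, SNORA7A, SNORA57 and SNORA47. The mean over all libraries was at least 100 TPM for 43 members and under 10 TPM for 47. Reads were found in EVs but in no cell library for 6 members (SNORA2, SNORA73, SNORA40C, SNORA71, SNORA70B and SNORA25B), with 1 to 15 reads each. Reads were found in cells but in no EV library for 7 members (SNORA59A, SNORA59B, SNORA35B, SNORA30B, SNORA5B, SNORA108 and SNORA10B), with 1 to 27 reads each. Counts this low do not show that a member was absent.

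The members that led the H/ACA reads differed between cells and EVs. In PC3 cells, SNORA2C (31.1% of the H/ACA reads), SNORA18 (20.9%) and SNORA7A (17.0%) led. SNORA18 (33.7%), SNORA2C (17.4%) and SNORA57 (11.1%), which lies in the gene of the methyltransferase CSKMT, led in MDA-MB-231 cells. In PC3 EVs SNORA71D led by group mean with each method, with 24.6% of H/ACA reads for next-gen ATPS, 17.4% for UC and 23.5% for exoRNeasy. SNORA58 led in MDA-MB-231 EVs from next-gen ATPS (11.8%) and exoRNeasy (16.6%), and SNORA44 led in those from UC (10.6%). Scaled to length, SNORA71D had 3773 TPM per 100 bases in PC3 EVs and SNORA18 1389, against 48.5 and 1291 in PC3 cells. The order of these 2 members by level per length was thus opposite in PC3 cells and PC3 EVs.

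The first comparison asked which H/ACA snoRNAs differed between EVs and the cells that released them. In PC3, 26 of the 127 members tested were higher in EVs and 0 were lower (limma, Benjamini-Hochberg adjusted p under 0.05), with 18.5% of all 357 snoRNAs tested called higher and 2.24% lower. The members' share called higher, 20.5%, was near that background. Here and below, entries that share reads, such as SNORA50 and SNORA50C, were counted separately. The median difference was 0.70 on the log2(TPM + 1) scale over the members and 0.00 over all snoRNAs. In MDA-MB-231, 61 of 127 were higher and 0 lower, against backgrounds of 41.2% and 5.32%, and the medians were 3.09 and 1.56. Members at 0 reads in cells or EVs numbered 15 in PC3 and 24 in MDA-MB-231. Of these, 13 and 2 did not pass the bound that 3 reads per group allow and were dropped. The others were set to that bound, as log2 ratios without the added 1 TPM. The members' medians were then 1.09 over 114 members and 3.60 over 125, and part of the rise in PC3 may come from the dropped members. Without cell replicate 2 of MDA-MB-231, fewer snoRNAs were called higher, among members and among all snoRNAs. The medians were then 2.29 over the members and 1.28 over all snoRNAs. Of the 26 members called in PC3, 25 were also called in MDA-MB-231 (96.2% of the PC3 calls and 41.0% of the MDA-MB-231 calls).

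SNORA71D had the highest mean of all members. It was 69.8 and 60.3 TPM in PC3 cells and 3676, 5133 and 6260 TPM at the lowest, median and highest of the PC3 EVs. In MDA-MB-231 it was 67.7 and 120 TPM in cells, the second of which was 2 reads, and 1478, 3035 and 6376 TPM in EVs. Every EV library was more than an order of magnitude above its cells. The log2 difference was 6.24 ± 0.35 (SE; adjusted p = 8.4e-09) in PC3 and 4.98 ± 0.35 (adjusted p = 2.5e-08) in MDA-MB-231, where it was 5.39 without cell replicate 2. SNORA44 behaved in a like manner, with 88.6 and 58.5 TPM in PC3 cells against 1445, 3022 and 4417 TPM in PC3 EVs. In MDA-MB-231 it had 117 and 60.1 TPM in cells, the second of which was 1 read, and 1330, 3518 and 4870 TPM in EVs. Its log2 differences were 5.28 ± 0.42 (adjusted p = 3.8e-07) and 5.09 ± 0.42 (adjusted p = 1.2e-07), the latter 4.62 without cell replicate 2, with no overlap in either line.

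The other copies of SNORA71 in SNHG17 were higher in EVs of both lines too, but by different amounts. SNORA71B had 6.19 and 4.70 TPM in PC3 cells and 208, 377 and 1315 TPM in PC3 EVs, a log2 difference of 6.15 ± 0.72 (adjusted p = 2.6e-05). In MDA-MB-231 it had 4.10 and 60.1 TPM in cells, the second of which was 1 read, and 657, 1610 and 4268 TPM in EVs (6.43 ± 0.72, and 8.22 without cell replicate 2). SNORA71A was the member of this host gene with the highest level in cells (177 and 136 TPM in PC3, 204 and 180 TPM in MDA-MB-231, the last of which was 3 reads). It reached only 432, 507 and 861 TPM in PC3 EVs and 365, 1021 and 1561 TPM in MDA-MB-231 EVs. Its log2 differences of 1.82 ± 0.42 and 2.16 ± 0.42 were called (adjusted p = 0.0052 and 0.00061), and their adjusted p reached 0.167 and 0.408 over the alternatives. SNORA71C was low in cells (2.67 to 2.81 TPM in PC3) and rose by 3.52 in PC3, where its adjusted p reached 0.096 over the alternatives, and by 6.76 in MDA-MB-231. Without cell replicate 2 of MDA-MB-231 the differences there were 2.07 for SNORA71A and 5.62 for SNORA71C, both called. SNORA71A and SNORA71D are 83.1% identical and SNORA71C and SNORA71D 86.6% identical, and fragments that fit more than 1 copy could have been split between them. SNORA71B is only 42.7% to 45.6% identical to SNORA71A, SNORA71C and SNORA71D. Its annotated transcript of 272 bases held neither ANANNA in the middle stretch nor ACA at the end.

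SNORA18, SNORA2C and SNORA7A, the leading members of the cells, did not share this pattern. SNORA18 had 1727 and 1682 TPM in PC3 cells and 1571, 1768 and 2360 TPM in PC3 EVs, a log2 difference of 0.09 ± 0.31 (adjusted p = 0.93). In MDA-MB-231 it had 2817 and 1443 TPM in cells and 1438, 1779 and 2937 TPM in EVs, a difference of -0.10 ± 0.31 (adjusted p = 0.82). The groups overlapped in both lines. SNORA2C differed by -0.24 ± 0.31 in PC3 and 0.32 ± 0.31 in MDA-MB-231 (adjusted p = 0.75 and 0.43), with 2398 to 2683 TPM in PC3 cells and 1413 to 3973 TPM in PC3 EVs. SNORA7A, from the ribosomal protein gene RPL32, differed by -0.12 ± 0.32 in PC3 (adjusted p = 0.92). It was called higher in MDA-MB-231 EVs (1.62 ± 0.32, adjusted p = 0.00066), where cells had 726 and 361 TPM and EVs 707, 1800 and 2452 TPM, with overlap. The difference was 1.12 without cell replicate 2, and the adjusted p reached 0.52 over the alternatives.

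**Figure D2:**
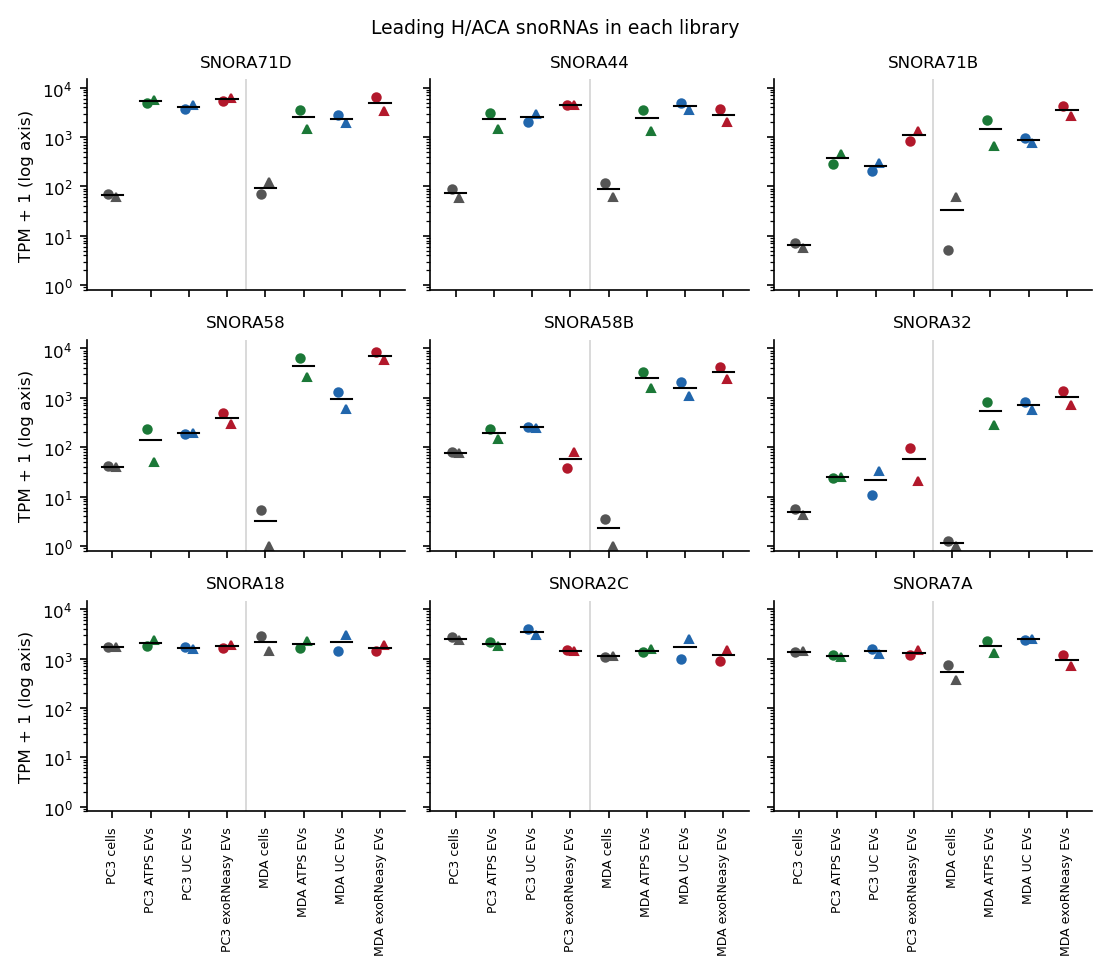
TPM + 1 on a log axis (y) for 9 H/ACA snoRNAs in the 2 libraries of each of 8 groups (x), with circles for replicate 1, triangles for replicate 2 and bars for the mean of 2. SNORA71D and SNORA44 lie at 58.5 to 120 TPM in cells and 1330 to 6376 TPM in EVs, SNORA58, SNORA58B and SNORA32 are highest in MDA-MB-231 EVs, and SNORA18 stays between 1438 and 2937 TPM throughout.

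Members from the same host gene did not move as a block. TAF1D contains 6 members. In PC3, SNORA25 and SNORA32 rose in EVs (3.96 ± 0.83 and 2.49 ± 0.78, adjusted p of up to 0.070 and 0.41 over the alternatives), while SNORA18, SNORA8, SNORA1 and SNORA40 differed by -0.58 to 1.52 and were not called. SNORA25 had only 1 to 6 reads in each PC3 EV library and SNORA32 only 1 to 5. In MDA-MB-231, SNORA32, SNORA25 and SNORA8 rose by 9.26, 5.75 and 5.23 (9.10, 4.78 and 2.84 without cell replicate 2, all called), and SNORA18 was at -0.10. Reads of SNORA18 made up most of the TAF1D reads of the cells. RPS2, which encodes a protein of the small ribosomal subunit, contains SNORA10 and SNORA64. SNORA10 had 0.84 and 1.47 TPM in PC3 cells and 24.1, 54.7 and 281 TPM in PC3 EVs (4.90 ± 0.78, adjusted p = 0.00034). The PC3 EV values of SNORA10 rest on 1 to 15 reads per library. SNORA64 had 139 and 122 TPM in PC3 cells and 46.5 to 216 TPM in EVs (-0.27, adjusted p = 0.86), with overlap. In SNHG12, SNORA44 rose in both lines, and SNORA61 was called in MDA-MB-231 alone (4.80 ± 1.88, adjusted p = 0.0496) and not without cell replicate 2 (adjusted p = 0.55). Whether members of a host gene differed from each other was not tested.

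Grouped by the kind of host gene, 8 of 22 tested members in lncRNA genes (36.4%), 5 of 17 in ribosomal protein genes (29.4%), 9 of 69 in other protein-coding genes (13.0%) and 1 of 9 in no host gene (11.1%) rose in PC3 EVs, where 18.5% of all snoRNAs did. The corresponding counts in MDA-MB-231 EVs were 11 of 22 (50%), 11 of 17 (64.7%), 31 of 69 (44.9%) and 2 of 9 (22.2%), beside 41.2% of all snoRNAs. Each of these counts was smaller without cell replicate 2, as was the share of all snoRNAs. Differences between the kinds of host gene were not tested. The ribosomal protein hosts were RPL27A (SNORA3A and SNORA3B), RPL12 (SNORA65), RPL23 (SNORA21) and RPS2 (SNORA10) for the members called in PC3. SNORA3A had 43.9 and 35.6 TPM in PC3 cells and 241, 328 and 1385 TPM in PC3 EVs, a log2 difference of 3.59 ± 0.93 (adjusted p = 0.011), which reached 0.12 over the alternatives. SNORA65 had 3.66 and 2.49 TPM in PC3 cells and 49.5, 95.4 and 169 TPM in EVs (4.55 ± 0.76). The members of DKC1, the dyskerin gene itself, were SNORA56 and SNORA36A, and neither was called in PC3. The 25 members called in both lines had a median GC content of 51.3% and a median length of 133 bases over the 22 with a sequence. The 36 called in MDA-MB-231 alone had 45.4% and 135 bases over 33 with a sequence, and the 65 called in neither line 50.8% and 134 bases over 59. The median level in cells was 5.88, 4.38 and 1.19 TPM in these 3 sets. These values are a description, with no test.

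**Figure D3:**
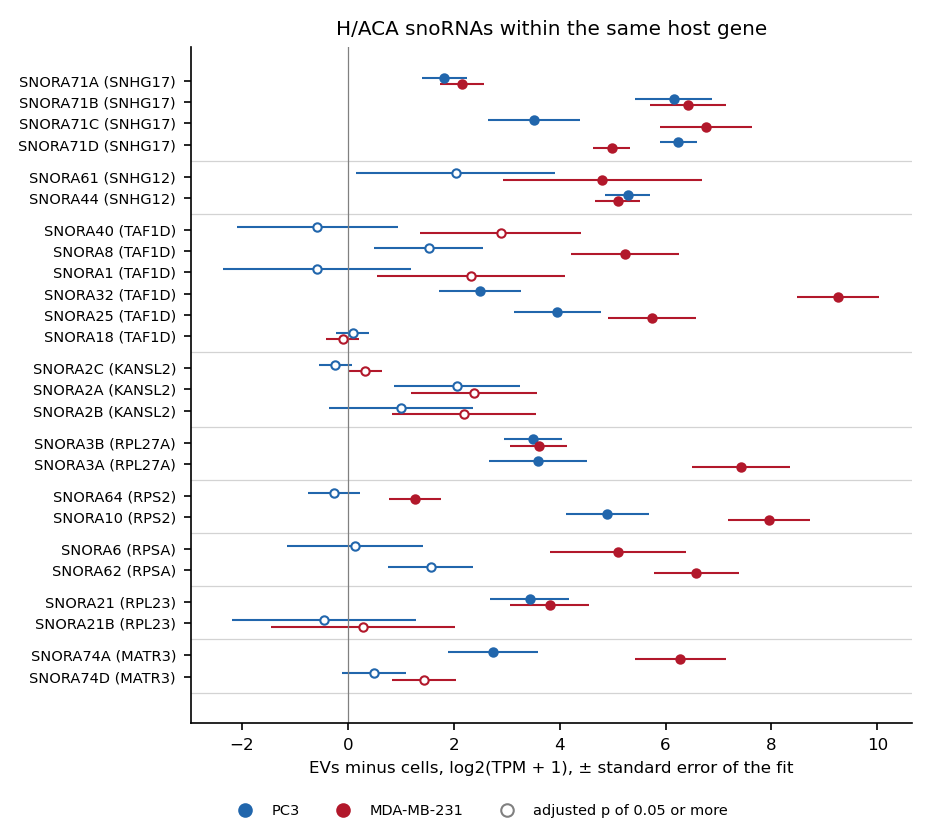
Log2 differences of TPM + 1, EVs minus cells (x axis), with the standard error of the fit, for members that share a host gene (y axis, host in brackets), in PC3 (blue) and MDA-MB-231 (red), with open points for an adjusted p of 0.05 or more. Within TAF1D, SNORA18 lies at 0.09 and -0.10 and SNORA32 at 2.49 and 9.26, and all 4 SNHG17 members lie above 0 in both lines.

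The scaling affected these counts. Reads centred on the snoRNAs detected in all libraries gave 22 higher and 3 lower members in PC3, beside 53 and 46 of all snoRNAs. The share called higher was 17.3% of members and 14.8% of all snoRNAs. Quantile normalization gave 21 higher and 13 lower members in MDA-MB-231, beside 60 and 82 of all snoRNAs. The share called higher there was 16.5% of members, near the 16.8% of all snoRNAs. The members' median there turned to -0.12 and that of all snoRNAs to -0.55. SNORA71D, SNORA71B, SNORA44 and SNORA3 in PC3 and SNORA58, SNORA58B, SNORA32 and SNORA50 in MDA-MB-231 stayed called in the same direction under every alternative. Leaving out PC3 cell replicate 2 left 14 calls in PC3.

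The next comparison asked whether the difference between EVs and cells was the same in both lines. For 10 of 127 members the difference was smaller in PC3 than in MDA-MB-231, and for 0 it was larger, beside 14.6% and 2.52% of all snoRNAs. The members' share, 7.87%, was below that background. The 10 were SNORA58B, SNORA58, SNORA32, SNORA53, SNORA62, SNORA20, SNORA36A, SNORA50, SNORA50C and SNORA7A. The median of the members was -2.07 and that of all snoRNAs -1.37. Without MDA-MB-231 cell replicate 2 there were 7, and without cell replicate 1 there were 26 smaller and 1 larger. Without PC3 next-gen ATPS replicate 1 there were 16. Quantile normalization gave 3 larger and 6 smaller, beside 21 and 26 of all snoRNAs. Centring on common snoRNAs gave 1 and 8, beside 27 and 46 of all snoRNAs.

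SNORA58 showed the pattern most plainly. It had 39.7 and 39.5 TPM in PC3 cells and 48.2, 212 and 487 TPM in PC3 EVs. In MDA-MB-231 it had 4.36 TPM (17 reads) and 0 TPM in cells and 603, 4296 and 8331 TPM in EVs. PC3 cells were thus above MDA-MB-231 cells, and PC3 EVs below every MDA-MB-231 EV library. The EV minus cell difference was 2.29 ± 0.67 in PC3 (adjusted p = 0.022, up to 0.38 over the alternatives) and 10.31 ± 0.67 in MDA-MB-231 (adjusted p = 1.3e-08), and the difference between these was -8.02 ± 0.94 (adjusted p = 2.0e-05). It was -6.81 without MDA-MB-231 cell replicate 2.

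SNORA58B followed the same order. PC3 cells had 78.2 and 75.5 TPM and PC3 EVs 37.4, 188 and 258 TPM, a difference of 0.81 ± 0.55 that did not pass the test (adjusted p = 0.37). MDA-MB-231 cells had 2.56 TPM (10 reads) and 0 TPM and EVs 1105, 2216 and 4206 TPM, a difference of 10.20 ± 0.55 (adjusted p = 2.6e-09). The difference between the lines was -9.38 ± 0.77 (adjusted p = 1.5e-06), and -8.47 without cell replicate 2. SNORA32 had 4.50 and 3.32 TPM in PC3 cells (16 and 36 reads) and 9.91, 23.7 and 93.6 TPM in PC3 EVs. It had 1 to 5 reads in each PC3 EV library, where 1 read was worth 9.91 to 24.1 TPM. In MDA-MB-231 its cells gave 1 read in all (0.256 and 0 TPM) and its EVs 279, 760 and 1375 TPM. The ratio of the pooled shares was 3154 with an exact 95% interval of 564 to 124737, which covers counting error only, while libraries of a group differed by more than that. The difference between the lines was -6.77 ± 1.10 (adjusted p = 0.00033), and -6.60 without cell replicate 2.

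SNORA53 and SNORA62 had overlapping levels in the EVs of both lines and differed in the cells. SNORA53, within SLC25A3, the gene of the mitochondrial phosphate carrier, had 124 and 123 TPM in PC3 cells and 12.3 and 0 TPM in MDA-MB-231 cells. Its EVs had 145, 332 and 446 TPM in PC3 and 312, 413 and 643 TPM in MDA-MB-231. SNORA62, within the ribosomal protein gene RPSA, had 92.0 and 94.2 TPM in PC3 cells, 13.3 and 0 TPM in MDA-MB-231 cells, 69.7 to 565 TPM in PC3 EVs and 205 to 768 TPM in MDA-MB-231 EVs. Neither was called between cells and EVs in PC3 (1.31 ± 0.74 and 1.57 ± 0.80, adjusted p = 0.26 and 0.21). The differences between the lines were -5.52 ± 1.04 (adjusted p = 0.0012) and -5.01 ± 1.13 (adjusted p = 0.0053), the latter with an adjusted p of up to 0.14 over the alternatives. They were -3.65 and -3.09 without cell replicate 2, both called.

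**Figure D4:**
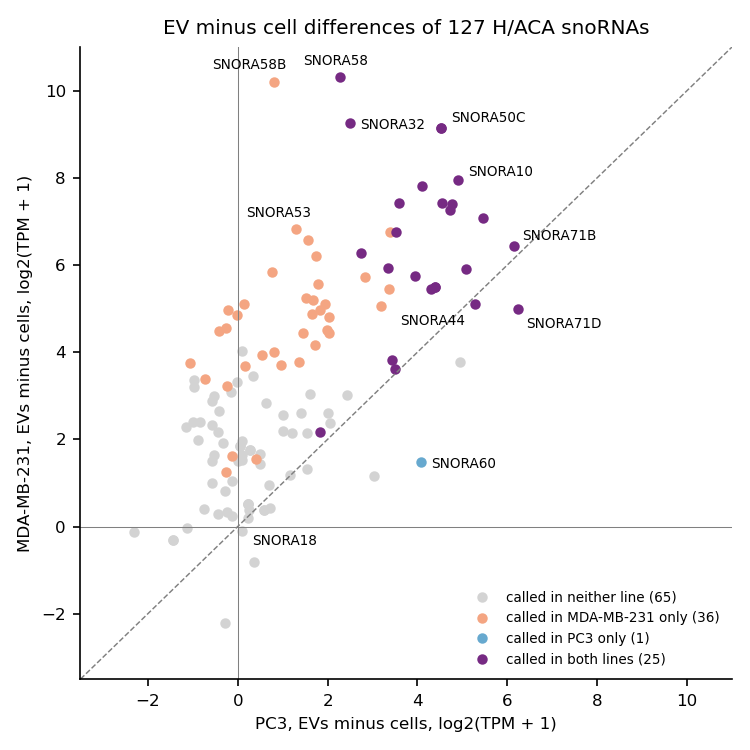
EV minus cell differences of log2(TPM + 1) for the 127 members tested, in PC3 (x axis) and MDA-MB-231 (y axis), coloured by the lines in which a member was called, with a dashed line of equality. SNORA58 (2.29 and 10.31), SNORA58B (0.81 and 10.20) and SNORA32 (2.49 and 9.26) lie far above the line, and SNORA71D (6.24 and 4.98) lies below it.

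Between the lines themselves, 8 of 127 members were higher in PC3 cells than in MDA-MB-231 cells and 0 were lower, with backgrounds of 20.2% and 2.24%. They were SNORA58B, SNORA53, SNORA62, SNORA58, SNORA20, SNORA75, SNORA7A and SNORA2C. SNORA58B (5.37 ± 0.67, adjusted p = 2.2e-05), SNORA53 (5.09 ± 0.90, adjusted p = 0.00057), SNORA62 (4.64 ± 0.98, adjusted p = 0.0025) and SNORA58 (4.13 ± 0.82, adjusted p = 0.0014) were called also without MDA-MB-231 cell replicate 2, with differences of 4.45, 3.22, 2.71 and 2.92. The other 4 were not. Quantile normalization ended the calls of SNORA62 (adjusted p = 0.10) and SNORA58 (adjusted p = 0.070). The count was 4 without either PC3 cell replicate and 25 without MDA-MB-231 cell replicate 1. Quantile normalization gave 2 higher and 9 lower, beside 41 and 36 of all snoRNAs. Centring on common snoRNAs gave 4 and 3, beside 44 and 34 of all snoRNAs. With edgeR the members' counts were 9 and 10, beside 83 and 42, and with DESeq2 6 and 2, beside 59 and 22. The members' median (0.88) turned to -1.32 under quantile normalization, -0.01 under centring and -0.65 under DESeq2.

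In EVs, 4 members were higher in PC3 and 25 lower, beside 18.2% and 15.1% of all snoRNAs. The median was -1.13 over the members and -0.03 over all snoRNAs, and the members' median was below 0 under each scaling tried. SNORA58 (-3.89 ± 0.47, adjusted p = 3.4e-05), SNORA58B (-4.02 ± 0.39, adjusted p = 8.2e-06), SNORA32 (-4.65 ± 0.55, adjusted p = 3.2e-05) and SNORA10 (-3.02 ± 0.55, adjusted p = 0.0011) were the largest without overlap in any method. SNORA10 had 254, 507 and 1777 TPM in MDA-MB-231 EVs against 24.1, 54.7 and 281 TPM in PC3 EVs (1 to 15 reads per library). The 4 members higher in PC3 EVs were SNORA60, SNORA2A, SNORA71D and SNORA2C. SNORA2A, from KANSL2, had 56.1, 139 and 216 TPM in PC3 EVs and 0, 24.6 and 82.7 TPM in MDA-MB-231 EVs (2.81 ± 0.84, adjusted p = 0.019, up to 0.064 over the alternatives). With MDA-MB-231 exoRNeasy replicate 2 left out, fewer members were higher and more were lower. With all libraries, edgeR gave 2 members higher and 55 lower, beside 48 and 88 of all snoRNAs.

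The last comparisons asked whether the isolation methods gave different H/ACA snoRNAs. Between next-gen ATPS and UC EVs, averaged over both lines, 0 members were called by limma, as were 0.00% of all snoRNAs, and 11 members (8.66%) had an unadjusted p under 0.05, beside 14.6% of all snoRNAs. On the recovered reads, edgeR called 4 members lower in next-gen ATPS and DESeq2 1, and 0 were higher with either. Over all snoRNAs, edgeR called 14 lower and 2 higher, and DESeq2 4 lower and 11 higher. SNORA3 had the smallest p among the members (-2.34 ± 0.68, adjusted p = 0.16), with 23.2 and 48.2 TPM in PC3 next-gen ATPS EVs against 198 and 149 TPM in PC3 UC EVs, and 225 and 82.1 TPM against 392 and 1253 TPM in MDA-MB-231. The next-gen ATPS libraries were below the UC libraries in both lines, in PC3 with only 1 and 2 reads against 20 and 14. A count of 0 calls does not show that the methods gave the same H/ACA snoRNAs.

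Between next-gen ATPS and exoRNeasy EVs, SNORA50 and SNORA50C were higher in next-gen ATPS and 0 members lower, beside 1.96% and 1.40% of all snoRNAs. SNORA50C had 720 and 578 TPM (31 and 24 reads) in PC3 next-gen ATPS EVs and 18.7 and 98.1 TPM (1 and 5 reads) in PC3 exoRNeasy EVs. In MDA-MB-231 it had 2294 and 2495 TPM with next-gen ATPS and 509 and 524 TPM with exoRNeasy. The groups did not overlap in either line (3.04 ± 0.56, adjusted p = 0.0048, up to 0.040 over the alternatives). SNORA50 and SNORA50C had equal reads in 15 of 16 libraries and count as 1 observation. The count was 6 without either MDA-MB-231 cell replicate, and 4 when PC3 next-gen ATPS replicate 1 or MDA-MB-231 exoRNeasy replicate 1 was dropped. edgeR gave 5 members higher and 6 lower, beside 11 and 15 of all snoRNAs.

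Between UC and exoRNeasy EVs, 9 members were higher in UC and 2 lower, beside 10.1% and 3.64% of all snoRNAs. SNORA48B was 19.8 and 21.2 TPM in PC3 UC EVs and 0 TPM in both PC3 exoRNeasy libraries, and 265 and 59.1 TPM against 8.93 and 0 TPM in MDA-MB-231 (4.88 ± 1.05, adjusted p = 0.0097, up to 0.072 over the alternatives). The PC3 UC values were 2 reads each, and the 8.93 TPM was 1 read. A count of 0 in the PC3 exoRNeasy libraries allowed up to 56.1 and 58.9 TPM (3 reads). The PC3 libraries of SNORA48B thus could not tell the methods apart. SNORA11F, SNORA46, SNORA3, SNORA54, SNORA47, SNORA57, SNORA50 and SNORA50C were also higher in UC. SNORA57 had 396 and 361 TPM in PC3 UC EVs against 74.9 and 196 TPM with exoRNeasy, and 802 and 1182 TPM against 500 and 296 TPM in MDA-MB-231 (1.48 ± 0.38, adjusted p = 0.024). SNORA58 and SNORA71B were lower in UC (-1.99 ± 0.58 and -2.04 ± 0.62, adjusted p = 0.037 and 0.046). SNORA71B had 208 and 297 TPM in PC3 UC EVs against 842 and 1315 TPM with exoRNeasy, and 966 and 745 TPM against 4268 and 2713 TPM in MDA-MB-231.

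Each of these UC and exoRNeasy calls was lost under at least 1 alternative, and the count was the least stable of all. It was 1 without PC3 UC replicate 1, 3 without MDA-MB-231 UC replicate 2, 4 without PC3 exoRNeasy replicate 1, 5 and 6 without PC3 cell replicates 2 and 1, 6 when MDA-MB-231 exoRNeasy replicate 2 was dropped, and 22 without either MDA-MB-231 cell replicate. It was 7 without PC3 UC replicate 2 or MDA-MB-231 UC replicate 1. Quantile normalization gave 7 higher and 6 lower, and DESeq2 gave the same split. Over all snoRNAs the counts were 26 and 19 under quantile normalization and 25 and 30 under DESeq2. The exoRNeasy libraries had 43868 to 111985 snoRNA reads and the UC libraries 94210 to 400429, and the part of depth in these differences was not tested.

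**Figure D5:**
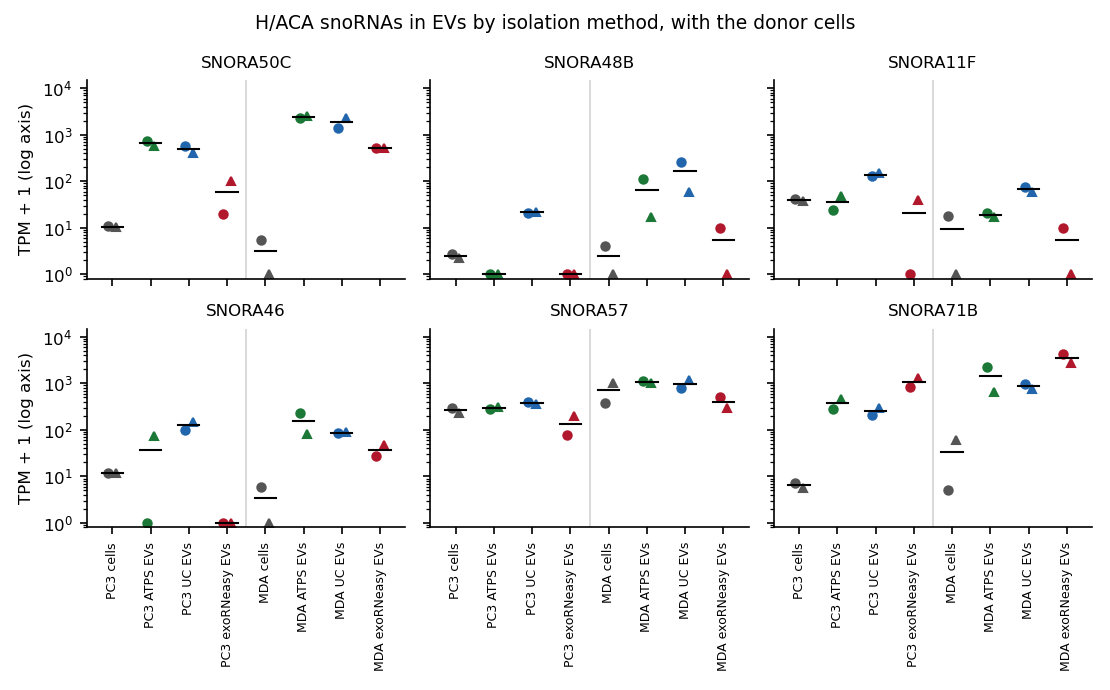
TPM + 1 on a log axis (y) for 6 H/ACA snoRNAs in the 2 libraries of each of 8 groups (x), with circles for replicate 1, triangles for replicate 2 and bars for the mean of 2. SNORA50C lies at 18.7 to 524 TPM with exoRNeasy and 414 to 2495 TPM with next-gen ATPS or UC, and SNORA71B is higher with exoRNeasy than with UC in both lines.

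Further members were followed because they are known from earlier work. SNORA68 had 48.2 to 657 TPM over all 16 libraries, SNORA24 0 to 319 TPM, SNORA21 7.31 to 607 TPM, SNORA13 0 to 164 TPM, SNORA23 0 to 59.1 TPM and SNORA69 0 to 46.5 TPM. SNORA21 rose in EVs of both lines (3.43 ± 0.75 and 3.82 ± 0.75, adjusted p of up to 0.12 and 0.25 over the alternatives), and SNORA13 and SNORA24 were called in MDA-MB-231 (5.83 ± 1.44 and 4.52 ± 1.05), the latter not without cell replicate 2 (adjusted p = 0.084). SNORA70 had 0 to 97.4 TPM, and its copies SNORA70B, SNORA70H, SNORA70I and SNORA70J had at most 17.7 TPM. Of the families entered in several copies, SNORA38 and SNORA38B rose in EVs of both lines and reached 284 TPM, and SNORA5A, SNORA5B and SNORA5C were called in neither line and stayed at or under 85.9 TPM. SNORA36A, SNORA36B and SNORA36C stayed at or under 37.4 TPM in every library, and all 3 were called in MDA-MB-231 alone, but none of them without cell replicate 2. The 5 SNORA74 entries reached 656 TPM, of which SNORA74A and SNORA74B were called in MDA-MB-231 and SNORA74A in PC3. The 6 SNORA11 entries reached 149 TPM and none was called between cells and EVs. SNORA16A (120 to 1089 TPM) and SNORA75 (0 to 130 TPM) were called in MDA-MB-231 alone, the former not without cell replicate 2 (adjusted p = 0.44). SNORA7A and SNORA7B are 98.6% identical but had equal reads in 0 of 16 libraries, and how reads that fit both were assigned is not known. SNORA11D and SNORA11E are 100% identical and had equal reads throughout. SNORA22, SNORA22B and SNORA22C had equal reads in all 16 libraries, as did SNORA17 and SNORA17A, and SNORA68 and SNORA68B agreed within 5% in 13. Entries with equal reads count as 1 observation entered more than once.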

How the data were processed

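Small RNA libraries of cells and EVs were made with the NEBNext small RNA kit after TRIzol extraction or, for exoRNeasy EVs, the kit's columns. Per the study's methods the authors discarded reads of low quality, kept short reads, used STAR for alignment to hg38 (both listed in the submitters' processing notes too) and COMPSRA for annotation, and kept multimapping reads while favouring unique ones. The sample titles write VC where the study describes UC. What the authors deposited as TPM is CPM over a library's snoRNA reads with no length term, since 1 read was worth the same for every snoRNA of a library. Of these values, 100% were whole multiples of 1 read within 0.1 read, and the reads so recovered set the precision of each value. The log-scale test planned for TPM was used unchanged. The count test of edgeR on the recovered reads called 44 members higher and 0 lower in PC3 EVs against cells, beside 87 and 48 of all snoRNAs. In MDA-MB-231 it called 83 members higher and 1 lower, beside 154 and 55 of all snoRNAs.

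All 357 snoRNAs with at least 1 TPM in at least 2 libraries, 127 of them members, were fitted together with limma 3.58.1 (trend and robust options, R 4.3.3) on log2(TPM + 1), with 1 mean for each of 8 groups. Differences are on that scale, which understates the change of low snoRNAs. EV means weigh the 3 methods equally, and method differences average both lines. p-values were adjusted by Benjamini-Hochberg over all 357, with a threshold of 0.05. Alternatives were other pseudocounts, filters and scalings, edgeR 4.0.16 and DESeq2 1.42.0 on recovered reads, a replicate block and leaving out each library. Without 1 library of a group, the lone library was assumed to vary like those of other groups.

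On simulated data for EVs against cells in PC3, the limma step called 0 of 297 unchanged snoRNAs and 1, 10 and 12 of 20 changed 2-fold, 4-fold and 8-fold. All snoRNAs were drawn with the same spread setting, and group means were equal apart from 60 snoRNAs changed in PC3 EVs. The simulation thus cannot give the rate of false calls in the real libraries, whose spread and composition it did not copy.

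The members and lists were chosen with earlier results of these data known. Members were named where they were among the 3 highest of a group, where they were among up to 4 called in each direction of a comparison with a mean of at least 10 TPM and no overlap in any line, where they were known from earlier work, or as near-identical copies. Further members were named after their values were seen, as neighbours in a host gene or as the full list of a short count. Loci and sequences came from GENCODE v44 on GRCh38. Reads of any 2 libraries of a group differed by more than sampling noise.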

Additional observations from a re-analysis of the deposited data

Results flagged for a closer look

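The EV minus cell difference differed between the lines for 10 members by the interaction term of the limma fit (Benjamini-Hochberg adjusted p under 0.05), all smaller in PC3 than in MDA-MB-231. On the log2(TPM + 1) scale the difference between the lines was -9.38 for SNORA58B, -8.02 for SNORA58, -6.77 for SNORA32, -5.52 for SNORA53 and -5.01 for SNORA62. It was -4.62 for both SNORA50 and SNORA50C, which share their reads. These 7 were called also without MDA-MB-231 cell replicate 2, and SNORA62 lost its call under at least 1 other alternative. SNORA20 (-4.88), SNORA36A (-4.82) and SNORA7A (-1.74) were not called without that replicate. SNORA36A had a mean of only 7.02 TPM, no read in PC3 EVs and none in MDA-MB-231 cells, so its value depends on the pseudocount.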

How the results depend on the processing

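The values are shares of snoRNA reads, most EV libraries hold few member reads, and a count moves with the test, the scaling and the filter. Counts of called members that moved by more than 1.5 times were as follows. In EVs against cells, edgeR gave 44 and DESeq2 52 in PC3, and quantile normalization gave 34 in MDA-MB-231. For the difference between the lines, edgeR gave 21 and no filter 18. Between the lines, TMM scaling gave 4 and edgeR 19 in cells, and edgeR gave 57 in EVs. For next-gen ATPS against UC, edgeR gave 4, DESeq2 1 and no filter 1. For next-gen ATPS against exoRNeasy, edgeR gave 11, and a pseudocount of 5, no filter and quantile normalization each gave 4. For UC against exoRNeasy, edgeR gave 27, a pseudocount of 5 gave 21, and a pseudocount of 0.5, no filter and TMM scaling each gave 6. The causes of these shifts were not tested.

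The share of H/ACA reads in PC3 EVs minus cells was 1.5 percentage points, 1.83 when the 6 SNORA entries outside the members were added and 1.00 without the most abundant member. The number of members detected in PC3 EVs minus cells was -44.3, -58.2 at 3 reads or more and 30.9 when computed for equal reads, which turns its direction because equal reads remove the depth of the cells.

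Leaving out each library in turn gave 14 to 30 and 42 to 68 called members for EVs against cells in PC3 and MDA-MB-231, 7 to 27 for the difference between the lines, 4 to 25 and 22 to 45 between the lines in cells and EVs, 0 for next-gen ATPS against UC, 2 to 6 for next-gen ATPS against exoRNeasy and 1 to 22 for UC against exoRNeasy. The difference in share was 1.47 to 1.57 in PC3 and 3.10 to 3.62 in MDA-MB-231.

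Libraries of the same replicate number did not deviate together across all groups: of 28 pairs of groups, 5 had a correlation over 0.1 (-0.21 to 0.27 over all), so the numbers were not taken to pair the libraries. The 3 pairs among the MDA-MB-231 EV groups were all among the 5 (0.22 to 0.27), a hint from the data and not the design. With the replicate number as a replicate block, 26 and 61 members were called for EVs against cells, 14 for the difference between the lines, 8 and 31 between the lines in cells and EVs, and 0, 2 and 15 between the methods.

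Of 754 recomputed values of the members named by comparison, 696 kept direction and call, 58 lost the call and 0 reversed, and 20 of 29 kept the call under every alternative run.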
